A study of Mus musculus with 2 samples.

Results

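Elastic fibres and their microfibrils were followed through 10 genes in single-cell RNA sequencing of the mouse heart, from a Sham library and a library made after transverse aortic constriction (TAC). The 10 genes were taken by their symbols from the 55357 genes listed in both matrices: Eln, Fbn1, Fbn2, Fbln1, Fbln2, Fbln5, Mfap4, Mfap5, Emilin1 and Lox. All 10 were found, each under 1 identifier. Both libraries came from C57BL/6 mice. TAC is a ligation of the aortic arch that overloads the left ventricle, and by the labels it was done in male mice at 8 weeks of age and lasted 6 weeks. The Sham mice had the same surgery with no ligation, and their age and sex are not given in the labels. The design text calls the control mice uninjured, which was not settled. Each library combined 3 to 5 hearts, so there was 1 library per condition and no animal can be told apart. With 1 library on each side no test was made, no p-value is given, and all intervals are exact 95% intervals that cover counting error only, so a difference between the animals and a difference between the preparations cannot be told apart from TAC.

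An elastic fibre has a core of cross-linked elastin, the product of Eln, laid down on a scaffold of microfibrils. Fibrillin-1 and fibrillin-2 (Fbn1, Fbn2) build the microfibrils, and the microfibril-associated proteins Mfap4 and Mfap5 bind to them. Fibulin-5 (Fbln5) helps to bring elastin onto the microfibrils, fibulin-1 and fibulin-2 (Fbln1, Fbln2) are found in elastic fibres and basement membranes, Emilin1 lies where elastin and microfibrils meet, and lysyl oxidase (Lox) cross-links elastin and collagen. In the heart such fibres are known in vessel walls, valves, the endocardium and the adventitia.

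Unique molecular identifiers (UMIs) count captured mRNA molecules. Depth was similar in both libraries, 28146691 UMIs over 9935 barcodes in Sham and 29108986 over 9932 in TAC, with medians of 1964 and 2143 per barcode, and 32 barcode sequences occurred in both. After called doublets were removed, 9475 Sham and 9452 TAC cells were clustered without the 10 genes and named from marker genes. A level is a gene's UMIs, summed over a cell type, for each 1000000 UMIs that the type holds, and it is compared between cells and libraries for 1 gene at a time, not between genes. Fibroblasts numbered 2291 in Sham and 2126 in TAC, pericytes 1064 and 1043, smooth muscle cells 50 and 43, endothelial cells 1904 and 2252, lymphatic endothelial cells 85 and 110, macrophages 1412 and 1324 and cardiomyocytes 2511 and 2398. All 8 fibroblast markers had UMIs in the fibroblasts of both libraries. Summed cardiomyocyte markers were also present there, at 2575 per 1000000 UMIs in Sham and 1863 in TAC, and their part in the results was not tested.

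The promoters of 5 of the 10 genes were read from the RefSeq table (GRCm38.p6). They were taken as windows of 250 bases before and 50 after a transcript start. No window was found for Eln, Mfap4 and Mfap5, while Fbn2 and Lox were left out of this reading. The windows of 4 genes are shown because their genes carry the comparisons that follow: Fbn1 with its high level in adventitial fibroblasts, Emilin1 and Fbln1 with higher TAC levels in fibroblasts, and Fbln5 with its opposite ratios in fibroblasts and endothelial cells. Capitals mark a GC box (GGGCGG) or a CCAAT box (CCAAT) read on either strand.
Fbn1, chr2:125506389-125506688, minus strand: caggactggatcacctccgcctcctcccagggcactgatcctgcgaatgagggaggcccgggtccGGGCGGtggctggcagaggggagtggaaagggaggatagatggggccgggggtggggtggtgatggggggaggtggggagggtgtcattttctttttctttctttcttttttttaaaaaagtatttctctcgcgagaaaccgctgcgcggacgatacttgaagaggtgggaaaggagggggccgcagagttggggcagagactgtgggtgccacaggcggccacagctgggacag
Emilin1, chr5:30913536-30913835, plus strand: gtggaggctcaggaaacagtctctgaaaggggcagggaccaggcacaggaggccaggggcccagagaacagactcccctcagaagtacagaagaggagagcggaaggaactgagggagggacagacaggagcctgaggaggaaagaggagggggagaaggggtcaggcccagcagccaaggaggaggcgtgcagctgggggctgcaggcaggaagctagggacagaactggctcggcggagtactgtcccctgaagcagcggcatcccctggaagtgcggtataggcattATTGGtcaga
Fbln1, chr15:85205758-85206057, plus strand: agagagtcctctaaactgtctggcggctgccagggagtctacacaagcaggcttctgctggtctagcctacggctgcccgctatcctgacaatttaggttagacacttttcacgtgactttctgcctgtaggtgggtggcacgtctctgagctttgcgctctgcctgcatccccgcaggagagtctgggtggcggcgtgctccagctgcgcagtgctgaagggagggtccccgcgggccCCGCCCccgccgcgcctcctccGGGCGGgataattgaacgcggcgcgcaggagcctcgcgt
Fbln5, chr12:101819070-101819369, minus strand: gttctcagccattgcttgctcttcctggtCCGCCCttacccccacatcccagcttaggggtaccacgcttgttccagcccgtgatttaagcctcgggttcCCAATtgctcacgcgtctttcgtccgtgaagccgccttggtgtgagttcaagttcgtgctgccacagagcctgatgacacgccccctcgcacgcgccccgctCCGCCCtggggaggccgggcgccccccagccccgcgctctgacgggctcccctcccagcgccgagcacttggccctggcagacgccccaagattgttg
The Fbn1 window held 1 GC box, the Fbln1 window shown 2 and the Fbln5 window shown 2, and a CCAAT box was found once in the Emilin1 window and once in the Fbln5 window. A second window each for Fbln1 (chr15:85205699-85205998) and Fbln5 (chr12:101818435-101818734) held 0 of either. Over all 32851 windows of this length, 35.7% held a GC box and 37.4% a CCAAT box. TATAAA, which 13.6% of all windows held, and the AP-1 site TGACTCA, which 5.20% held, did not occur in these 4 windows. These matches describe letters only. The Fbln2 window, chr6:91212514-91212813, also held 2 GC boxes.

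By the GENCODE M21 annotation of GRCm38, Eln lies on chromosome 5 (134702593 to 134747323, minus strand), Mfap4 on chromosome 11 (61485431 to 61488900, plus strand) and Mfap5 on chromosome 6 (122505845 to 122529290, plus strand), while Fbn2 and Lox lie on chromosome 18. All 10 are protein-coding. Genes on the opposite strand overlap Eln (Gm30003), Fbn1 (Gm9913), Fbn2 (Gm26507), Mfap4 (Mapk7) and Lox (AC161119.1), and whether strand was used in the counting is not given in the sources used here.

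Most of the transcripts lay in fibroblasts. Of the summed UMIs of the 10 genes, fibroblasts held 75.6% in Sham (75.0 to 76.2) and 73.2% in TAC (72.7 to 73.8), although they held 20.9% of all UMIs in Sham and 19.5% in TAC. Endothelial cells held 10.6% and 13.5%, and pericytes 7.48% and 7.43%. Single genes differed in how far they were shared with other cells. Mfap4 was the most restricted to fibroblasts in Sham, with 92.2% of its UMIs there (88.8 to 94.8), and Emilin1 the least, with 48.0% (42.6 to 53.4), where pericytes held 20.8% and endothelial cells 15.3%. Eln was divided between fibroblasts, with 66.5% in Sham and 62.8% in TAC, and endothelial cells, with 27.2% and 30.4%.

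**Figure D1:**
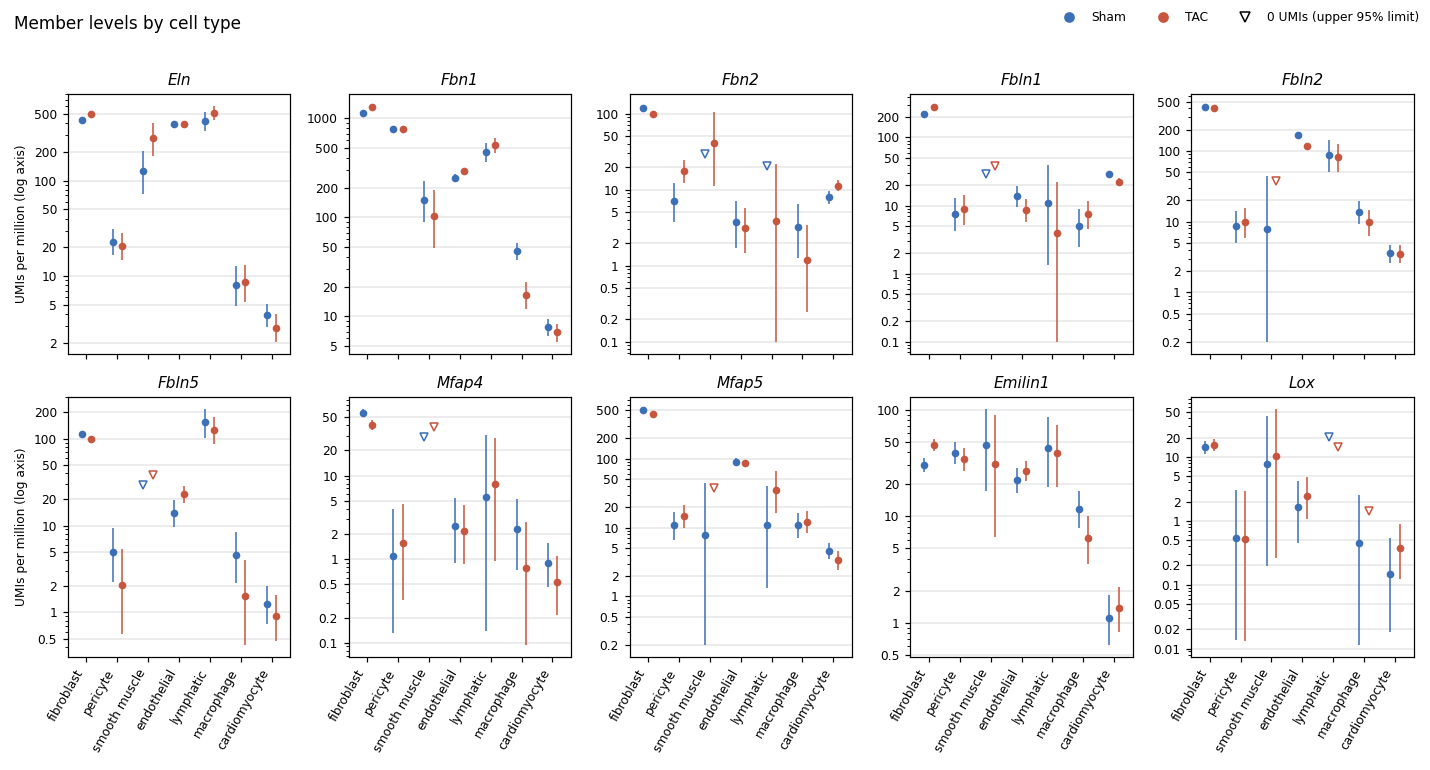
Level of each gene in UMIs per 1000000 (log axis) in 7 cell types, with Sham in blue and TAC in red. Points are levels, bars exact Poisson 95% intervals, and open triangles mark 0 UMIs at the upper limit of the interval; Fbn1 is high in fibroblasts and pericytes, Eln in fibroblasts and endothelial cells, and Eln, Fbn1 and Emilin1 are lowest in cardiomyocytes.

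Eln, the elastin gene, was at 426 per 1000000 UMIs in Sham fibroblasts (409 to 444) and 501 in TAC (482 to 520). Endothelial cells were close behind at 391 and 388, and lymphatic endothelial cells at 416 and 513, where the Sham interval of 327 to 520 takes in the fibroblast value. Smooth muscle cells, known as a main source of elastin in arteries, had 16 and 27 Eln UMIs, a level of 126 (71.8 to 204) in Sham and 277 (182 to 403) in TAC. Pericytes had far less, at 22.9 and 20.8. Endothelial cells stood at 91.7% (85.0 to 99.0) of the fibroblast level in Sham and 77.6% (72.5 to 83.0) in TAC, and lymphatic endothelial cells were not resolved from fibroblasts, while all 3 lay above pericytes, macrophages and cardiomyocytes without overlap of their intervals.

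Fbn1, the main fibrillin gene of adult tissue, was shared by fibroblasts and pericytes. Its level was 1125 in Sham and 1316 in TAC fibroblasts, and 786 (746 to 828) and 777 (738 to 817) in pericytes. Lymphatic endothelial cells followed at 459 and 536, endothelial cells at 252 and 298, and smooth muscle cells at 149 and 102 from 19 and 10 UMIs. Intervals of fibroblasts, pericytes, lymphatic endothelial and endothelial cells did not overlap in either library. With each cell thinned to 1000 UMIs, an Fbn1 UMI was seen in 53.9% of Sham and 57.1% of TAC fibroblasts and in 51.1% and 48.8% of pericytes, against 0.606% and 0.545% of cardiomyocytes. This left out 211 and 92 fibroblasts, 190 and 88 pericytes and 34 and 13 cardiomyocytes with fewer UMIs. Without thinning the shares were 71.1% and 73.3% of fibroblasts, 61.4% and 64.6% of pericytes and 3.94% and 3.59% of cardiomyocytes, at Sham medians of 2155, 1581 and 4510 UMIs per cell. The fibroblast reference genes Dcn, Col1a1, Col1a2, Col3a1, Gsn and Lum stood in Sham pericytes at 3.55% to 34.3% of their fibroblast level, and Fbn1 stood above that range at 69.9% (65.9 to 74.0).

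Fbn2, the fibrillin gene known for its use in development, was at 117 in Sham and 97.4 in TAC fibroblasts. Pericytes had 7.08 from 13 UMIs in Sham and 17.7 from 34 UMIs in TAC, and endothelial cells had 3.71 and 3.09. Lymphatic endothelial cells had 0 and 1 UMIs, at most 17.2% and 22.5% of the fibroblast level by the upper limits. In cardiomyocytes the level was 7.86 and 11.3, with most of it in few cells (described further on).

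The fibulins took separate places. Fbln1 stood at 219 in Sham and 279 in TAC fibroblasts and at 13.6 and 8.66 in endothelial cells. Fbln2 was at 420 and 406 in fibroblasts, at 166 and 119 in endothelial cells, and at 87.5 and 82.2 in lymphatic endothelial cells. Fbln5 was at 114 and 99.1 in fibroblasts, a level not resolved from that of lymphatic endothelial cells, 153 (102 to 221) and 125 (85.6 to 177). Pooled endothelial cells had less Fbln5, at 14.0 and 22.9. Smooth muscle cells had 0 Fbln1 and 0 Fbln5 UMIs in both libraries, with upper limits of 29.0 in Sham and 37.8 in TAC, so levels under these were not detectable there.

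Among the microfibril-associated genes, Mfap5 was at 513 in Sham and 441 in TAC fibroblasts and at 88.7 and 86.3 in endothelial cells. Mfap4 was at 56.5 and 40.1 in fibroblasts and at or below 7.82 in endothelial, lymphatic endothelial and pericyte cells of either library. Emilin1 had no firm order among fibroblasts and vascular cells. Its Sham level was 30.5 in fibroblasts (26.1 to 35.6), 39.2 in pericytes (30.7 to 49.4), 43.8 in lymphatic endothelial cells from 8 UMIs and 47.1 in smooth muscle cells from 6 UMIs, and these intervals overlapped. Pericytes stood at 128% (96.0 to 170) of the fibroblast level in Sham, and below it in TAC at 73.0% (54.7 to 96.1). Lox had few UMIs, 77 and 81 in fibroblasts, a level of 14.2 and 15.6, and at most 8 UMIs in any other type of either library.

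Within the fibroblasts, 5 subclusters had at least 30 cells in both libraries. The largest was led by Rbfox1, Adgrl3 and Fap and stayed unnamed (1079 Sham and 817 TAC cells). A second unnamed one was led by Nkain2, Chrm3, Acss3 and Vit, with Fbn2 itself among its 10 leading genes (460 and 449 cells). Adventitial-like cells carried Pi16, Cd55, Dpp4, Sema3c, Cd248 and Ackr3 (333 and 587), and activated-like cells carried Postn, Cilp, Meox1, Thbs4 and Comp (81 and 75). A cluster with a low median of 1083 UMIs was led by the cardiomyocyte genes Tnnt2, Ryr2, Myh6 and Ttn (288 and 166), with cardiomyocyte markers summing to 4433 per 1000000 UMIs in Sham against 2152 to 2659 in the other 4 subclusters. Since the cells were clustered on their own transcripts, levels of these subclusters are a description with no test, although the clustering did not use the 10 genes themselves.

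Eln, Fbn2, Fbln1 and Fbln5 were highest in the Nkain2 cells, and Fbn1, Mfap5 and Fbln2 were highest in the adventitial-like or activated-like cells. Eln was at 622 in the Nkain2 cells of Sham and 798 of TAC, against 243 and 339 in the adventitial-like cells. Fbln5 and Fbln1 went the same way. Fbln5 was at 187 and 156 in the Nkain2 cells and at 68.9 and 59.6 in the adventitial-like cells, and Fbln1 at 335 and 487 in the Nkain2 cells against 214 and 226. Fbn2 differed most widely, with 335 and 273 in the Nkain2 cells against 18.5 and 19.9 in the adventitial-like cells. Its level in the Nkain2 cells was 5.31 times that of all other fibroblasts in Sham (4.53 to 6.24) and 5.41 times in TAC (4.51 to 6.49). This fold depended on how the cells were divided and on the markers asked for. Under other settings, clusters with both Nkain2 and Vit as markers were compared with all other fibroblasts. With subclusters at resolution 1 the fold was 2.57 and 3.39, and with the 10 genes kept in the clustering 2.41 and 2.72. At resolution 1 a cluster of 492 cells led by Nkain2, with Fbn2 among its leading genes, lacked Vit. It was thus counted among the other fibroblasts.

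Fbn1, Mfap5 and Fbln2 were high on the other side. Fbn1 was at 1708 in Sham and 2038 in TAC adventitial-like cells and at 1965 and 1916 in activated-like cells, against 854 and 896 in the Nkain2 cells. For Mfap5 the activated-like cells had 1188 and 1228, the adventitial-like cells 753 and 637, and the Nkain2 cells 284 and 234. In both libraries these 3 Mfap5 intervals lay apart. Under other settings, clusters with Postn as a marker had 1.48 to 2.47 times the Mfap5 level of other fibroblasts in Sham. In TAC this fold was 2.06 to 3.28. Adventitial-like clusters had folds of 1.55 to 1.72 in Sham and 1.59 to 1.92 in TAC, so the Sham order depended on the division. Mfap4 followed neither side: it was highest in the activated-like cells, at 145 (101 to 202) and 82.4 (50.3 to 127), and low in the adventitial-like cells, at 39.1 and 19.2, with 39.6 and 54.7 in the Nkain2 cells. Fbln2 was at 611 and 564 there and at 541 and 554 in the adventitial-like cells, against 244 and 252 in the Nkain2 cells. Emilin1 was too sparse for a firm order, between 15.4 and 37.4 in Sham and between 42.8 and 61.4 in TAC with overlapping intervals. Lox was highest in the Nkain2 cells, at 31.3 from 34 UMIs and 21.9 from 24, and lowest in the adventitial-like cells, a fold of 7.60 (2.71 to 29.5) in Sham and 2.35 (1.18 to 4.82) in TAC.

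**Figure D2:**
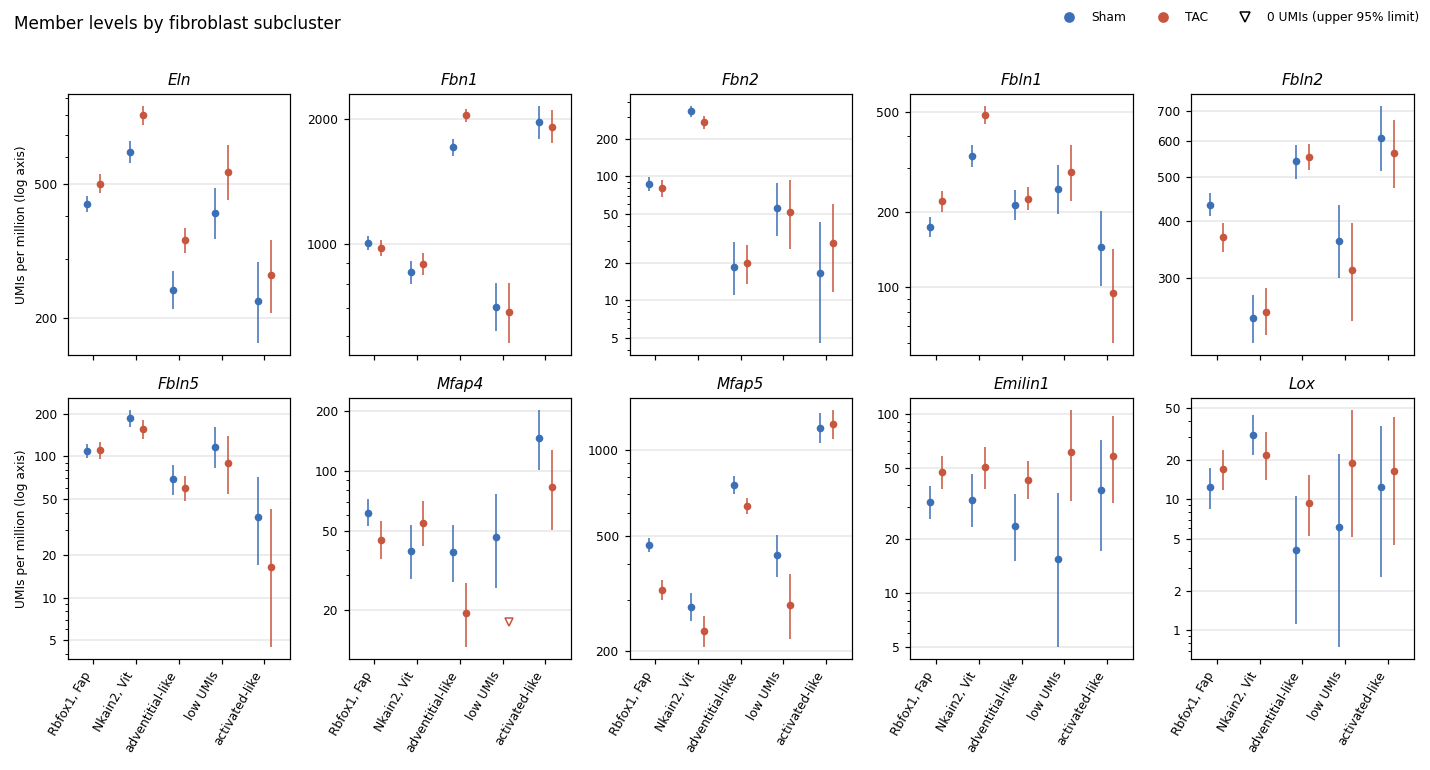
Level of each gene in UMIs per 1000000 (log axis) in the 5 fibroblast subclusters, Sham in blue and TAC in red, with exact Poisson 95% intervals and open triangles for 0 UMIs. Fbn2, Fbln1, Fbln5, Eln and Lox peak in the Nkain2 cells, Fbn1, Fbln2 and Mfap5 in the adventitial-like or activated-like cells, and Mfap4 in the activated-like cells.

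Between the libraries, the 10 genes moved little and in both directions in fibroblasts. Their summed level was 3035 in Sham and 3242 in TAC, a ratio of TAC to Sham of 1.07 (1.05 to 1.09), which is weighted toward the genes with most UMIs. Emilin1 was the only one of the 10 past 1.5-fold, with 166 Sham and 244 TAC UMIs, a level of 30.5 against 47.0 and a ratio of 1.54 (1.26 to 1.89). Thus 1 of 10 was higher by this measure and 0 of 10 lower, where 10.5% of the 12299 genes with at least 50 UMIs in fibroblasts were higher and 4.35% lower. The share of the 10 is near that background. Their median ratio was 1.03, beside 1.02 over all of those genes.

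Below the 1.5-fold limit, 3 genes had ratios above 1 with intervals that excluded 1. Eln stood at 1.17 (1.11 to 1.24), Fbn1 at 1.17 (1.13 to 1.21) and Fbln1 at 1.28 (1.18 to 1.38). On the other side were Mfap4 at 0.710 (0.592 to 0.849), Fbn2 at 0.829 (0.736 to 0.934), Mfap5 at 0.860 (0.813 to 0.909) and Fbln5 at 0.871 (0.774 to 0.981). Fbln2 at 0.966 and Lox at 1.10 (0.797 to 1.53) had intervals that included 1. The elastin gene and the main fibrillin gene were thus higher in the TAC library, and both microfibril-associated genes lower, all by less than 1.5-fold and with no replicate library to set these sizes against.

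**Figure D3:**
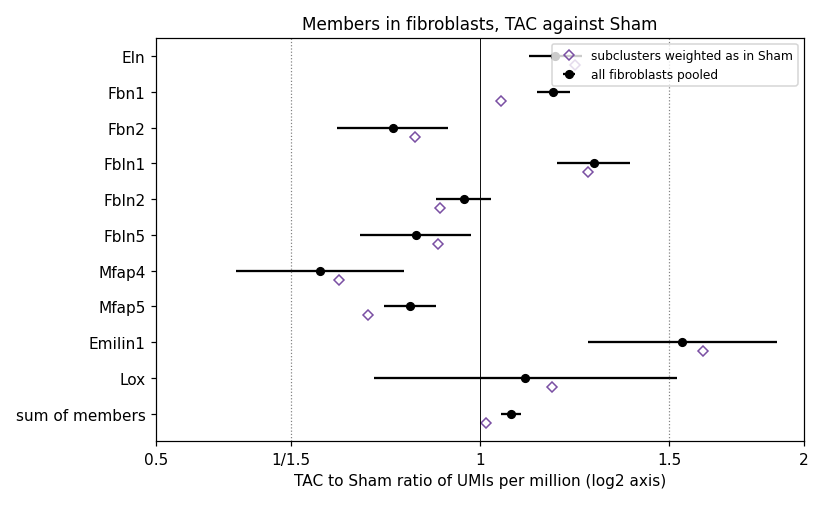
Ratio of TAC to Sham level of each gene in fibroblasts (log2 axis). Black points pool all fibroblasts, with exact conditional binomial 95% intervals, purple diamonds weight the subclusters as in Sham, and dotted lines mark 1.5-fold; only Emilin1 lies past a dotted line, and the diamonds of Fbn1 and of the sum lie nearer to 1 than their pooled points.

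The make-up of the fibroblasts differed between the libraries, and some ratios changed when the subclusters were weighted alike. Adventitial-like cells were 14.5% of Sham and 27.6% of TAC fibroblasts. Their number depended on the division: 333 Sham and 587 TAC cells here, and 277 and 727 with each library clustered alone. When the 5 subclusters were given the weight they had in Sham, the ratio of the sum was 1.01 and that of Fbn1 fell from 1.17 to 1.05. Within the Rbfox1 cells the Fbn1 ratio was 0.972 (0.916 to 1.03), within the Nkain2 cells 1.05, within the activated-like cells 0.975, and within the adventitial-like cells 1.19 (1.12 to 1.27). The Fbn1 ratio thus changed with the weights given to the subclusters, and only the adventitial-like cells of these 4 subclusters had an interval above 1. Why the ratios differ was not tested. Mfap5 moved the other way, to 0.787 when weighted. It was at 466 in Sham and 325 in TAC Rbfox1 cells, a ratio of 0.698 (0.633 to 0.769), at 0.847 (0.769 to 0.932) in adventitial-like cells, and at 1.03 (0.875 to 1.22) in activated-like cells, where it was highest.

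Eln and Emilin1 kept their direction in every subcluster. The Eln ratio was 1.15 in the Rbfox1 cells, 1.28 in the Nkain2 cells, 1.40 (1.20 to 1.64) in the adventitial-like cells, 1.32 in the low-UMI cells and 1.19 (0.819 to 1.75) in the activated-like cells. The Emilin1 ratio was 1.47 (1.08 to 2.0) in the Rbfox1 cells, 1.51 (0.977 to 2.37) in the Nkain2 cells and 1.81 (1.12 to 3.04) in the adventitial-like cells, and in the low-UMI and activated-like cells its UMIs went from 5 to 13 and from 9 to 14. Weighted by subcluster, the ratio was 1.23 for Eln and 1.61 for Emilin1. Mfap4 did not keep one direction, with 0.732 (0.558 to 0.955) in the Rbfox1 cells, 0.492 (0.296 to 0.813) in the adventitial-like cells, 0.567 (0.310 to 1.01) in the activated-like cells and 1.38 (0.919 to 2.10) in the Nkain2 cells. The Fbln1 ratio was 1.45 (1.27 to 1.67) in the Nkain2 cells, where its level was highest, 1.26 (1.11 to 1.44) in the Rbfox1 cells and 1.06 (0.888 to 1.26) in the adventitial-like cells, but 0.652 (0.368 to 1.13) in the activated-like cells, from 35 to 23 UMIs.

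Some of the 10 genes, among them Eln, Fbln5, Fbln2 and Mfap5, differed in level between endothelial subclusters. Endothelial cells formed 4 subclusters of at least 30 cells in both libraries: capillary-like cells (1138 Sham and 1207 TAC), an unnamed cluster led by Rasa4, Kirrel3, Samd5, Thsd7a and Vegfc (388 and 562), arterial-like cells (93 and 139) and endocardial-like cells (192 and 300). Eln was at 97.0 in Sham and 81.8 in TAC capillary-like cells, at 319 and 311 in endocardial-like cells, at 905 and 769 in the Rasa4 cells, and at 1555 (1340 to 1794) and 1248 (1099 to 1411) in arterial-like cells. This order held in both libraries without overlap of intervals. In arterial-like cells 1 cell held 16.0% of the Sham and 1 held 12.3% of the TAC Eln UMIs. After thinning to 1000 UMIs, which left out 34 cells in each library, 49.2% of Sham and 40.0% of TAC arterial-like cells had an Eln UMI, against 0.686% and 0.252% of cardiomyocytes. Unthinned, these shares were 43.0% and 40.3% at median depths of 1148 and 1292 UMIs, and 2.07% and 1.46% at 4510 and 4916. Of the 6 smooth muscle markers, Acta2, Tagln, Cnn1 and Lmod1 had 0 UMIs in the arterial-like cells of both libraries, while Mylk had UMIs in both and Myh11 in TAC. Their sum was 58.2 in Sham and 113 in TAC per 1000000 UMIs, and that of the fibroblast markers 150 and 163.

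Fbln5 was nearly confined to the arterial-like and lymphatic cells among endothelial cells. Arterial-like cells had 23 Sham and 64 TAC UMIs, a level of 191 (121 to 287) and 316 (243 to 403), while capillary-like, Rasa4 and endocardial-like cells lay between 2.80 and 5.42. Fbln2 had a different limit: it was at 196 and 136 in capillary-like, 170 and 157 in Rasa4 and 191 and 197 in arterial-like cells, but at 14.9 and 10.6 in endocardial-like cells. Mfap5 was the reverse of Fbln2, at 298 and 244 in endocardial-like cells and 32.1 and 34.3 in capillary-like cells. Fibroblast markers summed to 472 and 554 in the endocardial-like cells, above the 148 to 169 of the Rasa4 and arterial-like cells, and their part in the Mfap5 level was not tested. Emilin1 was at 44.8 and 52.8 in endocardial-like cells and at 12.0 and 18.2 in capillary-like cells.

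**Figure D4:**
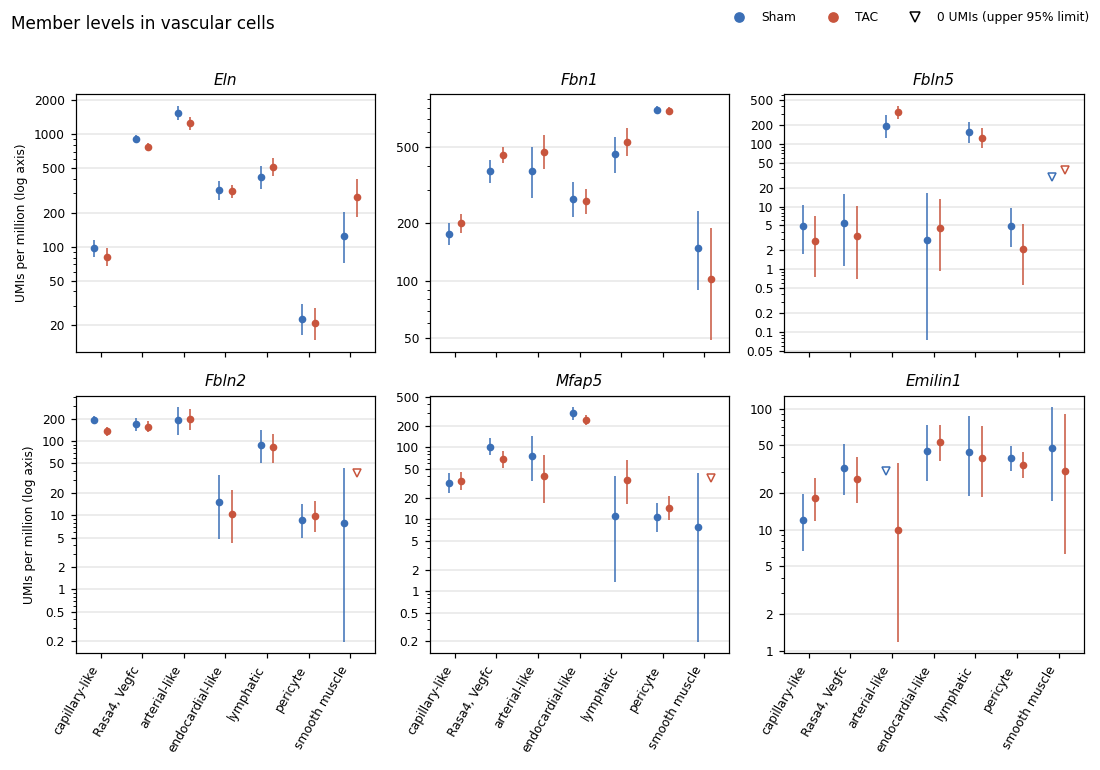
Level of 6 genes in UMIs per 1000000 (log axis) in endothelial subclusters, lymphatic endothelial cells, pericytes and smooth muscle cells, Sham in blue and TAC in red, with exact Poisson 95% intervals and open triangles for 0 UMIs. Eln and Fbln5 are highest in arterial-like cells, Mfap5 in endocardial-like cells and Fbn1 in pericytes.

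Over pooled endothelial cells, 7 of the 10 genes had at least 50 UMIs, and 1 was at least 1.5-fold higher in TAC and 1 lower, where 8.65% and 5.91% of all 10083 genes were. The higher one was Fbln5, with 34 and 74 UMIs and a ratio of 1.63 (1.07 to 2.53), which was 1.30 and no longer past the limit with no doublets removed. In arterial-like cells alone its ratio was 1.65 (1.01 to 2.79), and these cells were 4.88% of Sham and 6.17% of TAC endothelial cells. The lower one was Fbln1, from 33 to 28 UMIs, at 0.636 with an interval of 0.370 to 1.09. Fbln2 had a ratio of 0.716 (0.621 to 0.826), and within capillary-like cells 0.693 (0.571 to 0.841), against 0.926 (0.707 to 1.22) in Rasa4 cells and 1.03 (0.603 to 1.80) in arterial-like cells. Fbn1 was at 1.18 (1.07 to 1.31), and Eln at 0.994 (0.912 to 1.08). The reference genes stood in endothelial cells at 2.21% to 26.2% of their fibroblast level in Sham and 3.78% to 29.1% in TAC. Lum was the highest, and Gsn stood at 12.4% and 10.4%. Fbn1 (22.4% and 22.6%), Mfap5 (17.3% and 19.6%), Fbln5 (12.3% and 23.1%) and Fbln1 (6.22% and 3.11%) did not exceed this range. The source of their UMIs in pooled endothelial cells was not tested.

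In pericytes 3 genes had at least 50 UMIs and 0 of them were past 1.5-fold, which says little where 7.41% of 8379 genes were higher and 6.55% lower. Fbn1 was at 0.988 (0.919 to 1.06), Eln at 0.909 (0.575 to 1.44) and Emilin1 at 0.875 (0.617 to 1.24). Fbn2, just under the count minimum with 47 UMIs in all, had a ratio of 2.50 (1.28 to 5.15). It stood at 6.03% of its fibroblast level in Sham and 18.2% in TAC. The reference genes stood at 3.55% to 34.3% and 3.61% to 24.3%, so Fbn2 lay inside both ranges. Col1a2 was the highest in both. In TAC Fbn2 lay below Col1a2 and Col3a1 (20.3%) but above Col1a1 (14.4%), Gsn (7.75%), Lum (5.57%) and Dcn. The source of these UMIs was not tested. In smooth muscle cells, 50 and 43 in number, none of the 10 genes had 50 UMIs. Eln had a ratio of 2.20 (1.14 to 4.37) there, with 7 of its 27 TAC UMIs in 1 cell. Lymphatic endothelial cells gave Eln 1.23 (0.922 to 1.66), Fbn1 1.17 (0.883 to 1.55) and Fbln5 0.818 (0.477 to 1.41), all with intervals that included 1.

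Cardiomyocytes should hold little of these transcripts, and free RNA from broken cells can give all cells a low share. The 6 reference genes were at 0.782% to 3.31% of their fibroblast level in Sham cardiomyocytes and at 0.926% to 2.81% in TAC. Another 7 of the 10 genes lay at 0.521% to 2.44% in both libraries, at or below the upper end of this range. Whether these UMIs came from the cells or from free RNA was not tested, and no expression is read from them. Emilin1 was slightly above in both, at 3.64% (1.99 to 6.18) and 2.92% (1.70 to 4.71), with intervals that take in the range. Fbln1 and Fbn2 stood apart. Fbln1 was at 13.3% (11.8 to 14.9) in Sham and 8.01% (7.04 to 9.09) in TAC, and Fbn2 at 6.69% (5.40 to 8.23) and 11.6% (9.58 to 13.9).

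**Figure D5:**
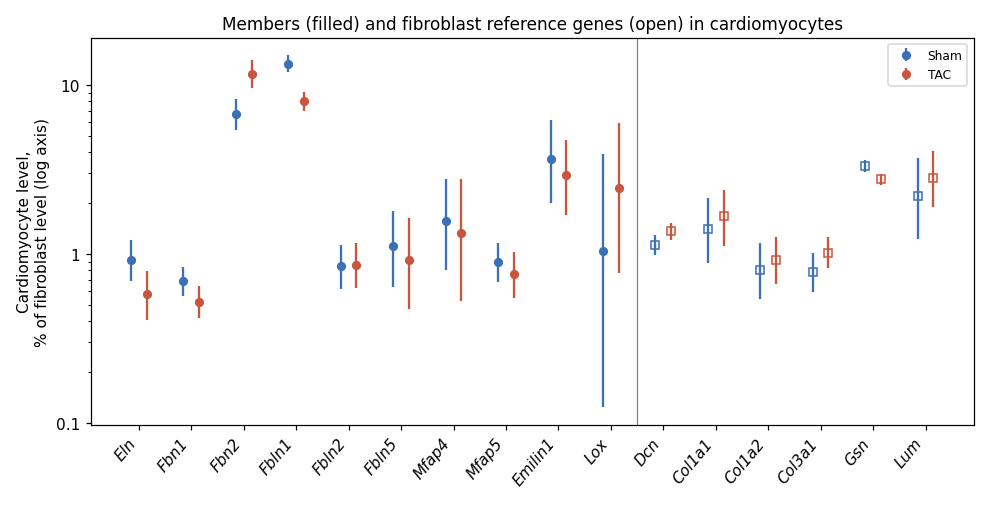
Level in cardiomyocytes as a percentage of the level in fibroblasts (log axis) for the 10 genes (filled circles) and 6 fibroblast reference genes (open squares), Sham in blue and TAC in red, with exact conditional binomial 95% intervals. Fbn2 and Fbln1 lie above all 6 reference genes in both libraries.

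Fbln1 was spread widely over the cardiomyocytes. Its 392 Sham UMIs lay in 306 cells with at most 5 in any cell, and its 293 TAC UMIs in 238 cells with at most 4. The 3 Sham cardiomyocyte clusters had 24.8, 27.8 and 35.9 per 1000000 UMIs, and the 2 TAC clusters 18.0 and 29.0. Its ratio of TAC to Sham was 0.768 (0.658 to 0.896), the opposite side of 1 from that in fibroblasts, and Dcn, whose UMIs there went from 208 to 308, did not move that way.

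Fbn2 was concentrated in few cardiomyocytes. In Sham, 67 of 106 UMIs lay in the cluster led by Cenpf, Fgf14 and Rp1, at 27.3 (21.2 to 34.7) against 3.69 (2.61 to 5.06) in the largest cluster, where Dcn was at 14.7 and 15.2. In TAC, 114 of 148 lay in the cluster led by Pdzrn4, Gm12381 and Gm36827, at 22.0 (18.2 to 26.5) against 4.28 (2.97 to 5.98), where Dcn was at 22.0 and 24.4. The Fbn2 difference between clusters thus came without one in Dcn. Col1a2 and Col3a1 were at 2.85 and 6.11 in the Sham cluster with more Fbn2 against 1.75 and 3.78, with overlapping intervals, and at 2.32 and 4.83 in the TAC one against 3.53 and 8.57. Its ratio of TAC to Sham in cardiomyocytes, 1.44 (1.11 to 1.86), gives no direction, since 1 group of 17 TAC cells with 56 of the UMIs joined a mesothelial cluster at resolution 2 and with at most 25% mitochondrial UMIs, and the ratio was then 0.845 and 0.897. With the 10 genes kept in the clustering it was 2.62. Of the 6 genes with at least 50 UMIs in cardiomyocytes, 0 were past 1.5-fold, where 12.9% of 13303 genes were higher in TAC and 6.71% lower.

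Macrophages held few of these UMIs. Of the 3 genes with at least 50, 0 were higher and 1 lower in TAC, where 8.96% of 9488 genes were higher and 8.88% lower. The lower one was Fbn1, from 45.3 to 16.4, a ratio of 0.362 (0.246 to 0.523), but 42 of its 100 Sham UMIs lay in 1 cell. Without the top cell of each library the ratio was 0.563, and with no doublets removed it was 1.60, so no direction is read from it. Emilin1 in macrophages was at 38.5% of its fibroblast level in Sham (24.5 to 58.5) and 13.3% in TAC (7.46 to 22.0), from 26 UMIs in 25 cells and 16 UMIs in 16 cells, above the 2.27% to 10.5% and 2.01% to 7.64% of the reference genes in Sham and close to them in TAC.

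Other elastic fibre genes were read in fibroblasts from lists set with earlier results of these data known. Of 18 assembly genes, 16 had at least 50 UMIs, and 4 were at least 1.5-fold higher in TAC and 1 lower, with a median ratio of 1.11, where 10.5% of all genes tested in fibroblasts were higher and 4.35% lower. The higher ones were Mfap2, a microfibril-associated gene, from 26 to 52 UMIs at 2.10 (1.28 to 3.50), the Emilin1 relatives Emilin2 at 1.70 (1.29 to 2.26) and Mmrn2 at 1.76 (1.11 to 2.84), and the small proteoglycan gene Bgn at 1.57 (1.44 to 1.72). Adamtsl2, whose product binds fibrillin microfibrils, was the lower one at 0.516 (0.452 to 0.589). Latent TGF-beta binding genes did not pass, with Ltbp1 at 1.07, Ltbp2 at 0.750, Ltbp3 at 0.752 and Ltbp4 at 1.05. Of 6 cross-linking genes, 5 were tested, 0 were higher and 1 lower: Loxl3 at 0.624 (0.526 to 0.739), while Loxl1, known for its part in elastic fibre upkeep, was at 1.44 (1.34 to 1.55). Of 8 elastin-degrading genes, 4 were tested and 1, Ctsl, was higher at 1.96 (1.58 to 2.44), with Mmp2 at 1.20 and Mmp14 at 0.949.

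Genes with the most similar pattern were sought among 10308 genes over 34 points, each a cell type or subcluster of 1 library with at least 30 cells, as Pearson's r of log2 levels with 1 added. The points share libraries and cells, so r is a description. Nearest to Eln was Vsig10 (r = 0.903), to Fbn1 the basement membrane gene Nid1 (0.941) and the microfibril-binding Ltbp4 (0.891), to Fbln1 Smoc2 (0.943), to Fbn2 Col6a6 (0.856), to Fbln2 Galnt15 (0.884) and to Fbln5 Aspa (0.870). Mfap4 was nearest to Cilp (0.867), Mfap5 to Vcan (0.880) and Dcn (0.859), and Emilin1 to Mmp14 (0.919). Lox was under the minimum of 500 UMIs set for this. None of the other 9 had another of the 10 among its 3 nearest. Among themselves the highest r were those of Fbln2 with Fbln5 (0.787) and with Fbln1 (0.785).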

How the data were processed

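Single cells were profiled by 10x Genomics chemistry (V3 in the labels, v2 in the study's methods), and the authors ran Cell Ranger, whose file header gives version 7.1.0 and whose methods give another. The deposited values are raw UMI counts per gene and barcode, not normalized; genome build and intron counting are not given in the sources used here. Cells with at least 200 detected genes were kept, and called doublets (4.62% in Sham, 4.82% in TAC) were removed. Each library was clustered with scanpy 1.11.5 (2000 variable genes, 30 components, 15 neighbours, resolution 1), and subtypes over both libraries at resolution 0.5. Clusters were named from at least 3 markers; a rule for ties was added after the first clustering was seen. The members and lists were chosen with earlier results of these data known. A gene counted as tested with at least 50 UMIs over both libraries, and as higher or lower past 1.5-fold. Intervals are exact: Poisson for levels, Clopper-Pearson for shares, and conditional binomial for ratios. Named genes were the 10 members, the listed elastic fibre genes and, for members with at least 500 UMIs, the 3 genes most alike in pattern. The fibroblast comparison was tested on simulated data of 12299 genes. These were Poisson counts from a shared mean, with no variation between animals, libraries or cells. There, 96% of genes raised 2-fold, 93.5% of genes lowered 2-fold and 2.11% of unchanged genes passed the fold. These shares cover counting error only.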

Additional observations from a re-analysis of the deposited data

Results flagged for a closer look

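For 4 genes the ratio of TAC to Sham lay above 1 in some cell types and below 1 in others, each with an interval that excluded 1. The difference between cell types was not tested, since each condition had 1 library. Fbn1 was at 1.17 in fibroblasts and 1.18 in endothelial cells but at 0.362 in macrophages, where 42 of 100 Sham UMIs lay in 1 cell and the ratio without the top cell of each library was 0.563. With no doublets removed it was 1.60. Fbn2 was at 1.44 in cardiomyocytes and at 0.829 in fibroblasts. In pericytes it was at 2.50, from 13 and 34 UMIs, with levels inside the range of the reference genes there, though in TAC above all but Col1a2 and Col3a1. The cardiomyocyte ratio gives no direction, since it was 0.845 at resolution 2 and 0.897 with at most 25% mitochondrial UMIs. Fbln1 was at 1.28 in fibroblasts and 0.768 in cardiomyocytes. Fbln5 was at 1.63 in endothelial cells and 0.871 in fibroblasts.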

How the results depend on the processing

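With 1 library per condition, all of these values rest on counting error alone, and no library could be left out. No paired analysis was possible because Sham and TAC were 1 library apiece. Each choice was changed one at a time. Over all alternatives, the values that answer a comparison stayed near the reported value 46 times and moved 5 times. With no doublets removed, the summed ratio in fibroblasts was 1.14, the share of UMIs in fibroblasts was 72.6% in Sham and 67.3% in TAC, and Fbn1 in macrophages turned to 1.60. With a fold limit of 2, 0 of the 10 genes were higher in TAC fibroblasts. With subtypes weighted as in Sham the summed ratio was 1.01. Fbn2 in cardiomyocytes turned to 0.897 with at most 25% mitochondrial UMIs and to 0.845 at resolution 2, where 17 TAC cells with 56 of its UMIs left the cardiomyocytes. Among single ratios, 314 stayed, 11 moved and these 3 turned. A ratio turned only if its reported interval excluded 1 and its direction changed, and stayed if it lay inside that interval. Ratios whose interval included 1 could cross it uncounted. Fbln2 in macrophages ranged from 0.661 to 1.72. The Emilin1 ratio in fibroblasts ranged from 1.52 to 1.70, that of Fbn1 from 1.05 to 1.25, and that of Fbln5 in endothelial cells from 1.30, under the 1.5-fold limit, with no doublets removed, to 1.81. Subtype folds moved more often, with 55 moved and 99 not, and Fbn2 in the Nkain2 cells ranged from 2.41 to 5.80 in Sham and from 2.72 to 5.87 in TAC. Of the shares of cells with a UMI, 28 moved and 2 did not when cells were thinned to other depths or not thinned. Such shares change with depth by their nature, so this count says little about how firm they are. With no doublets removed, no TAC cluster was named smooth muscle. Smooth muscle, lymphatic endothelial and arterial-like cells are limited by their number of cells.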

Other observations

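A few cardiomyocytes with the most Fbn2 were also high, as a group, in other genes. Cells with at least 3 Fbn2 UMIs, a limit chosen after the values were seen, numbered 11 in Sham and 13 in TAC and held 59 of 106 and 84 of 148 of the Fbn2 UMIs in cardiomyocytes (55.7% and 56.8%). Their median depths, 4154 and 4514 UMIs, were near the 4501 and 4921.5 of cardiomyocytes with 0 Fbn2 UMIs. Genes seen in a set share of the Sham cells were ranked by fold after a constant was added to both levels. This ranking favours genes with more UMIs. The first 10 were Slit2, Slit3, Kirrel3, Ephb1, Thsd7a, Rgs6, Grip1, Cdk14, Cntn2 and Ncam1. Plain folds do not follow this order, with 58.1 for Slit2 and 193 for Cntn2 in Sham, and they need not be the largest. In the TAC cells, which were not used to choose them, 9 of these 10 had an interval of the fold above 1, and Thsd7a did not (1.94, 0.398 to 5.72). How many other genes had such an interval there was not counted. UMIs of the same cell are not independent, so the count is a description. Single cells did not all carry the 10 genes: Rgs6 was seen in 11 of 11 Sham and 12 of 13 TAC cells, but the others in 3 to 7 of the Sham cells, and Thsd7a in 1 TAC cell. Slit3, a guidance ligand, was at 1115 per 1000000 UMIs against 34.3 in the Sham cells with no Fbn2, and at 2135 against 55.2 in TAC, and it was seen in 7 of 11 and 13 of 13 cells. Cntn2, a cell adhesion gene known from the ventricular conduction system, was at 220 against 1.14 in Sham and 391 against 1.33 in TAC, from 16 and 26 UMIs in 4 and 6 cells. The summed cardiomyocyte markers were at 68620 against 81818 in Sham and 51011 against 63488 in TAC. Dcn had 0 and 1 UMIs in these cells, Col1a2 0 in both, and the mesothelial markers 0 in both. No cell type name is given to these cells.

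Lox had 2 Sham and 7 TAC UMIs in arterial-like cells, a level of 16.6 and 34.5, and 0 in capillary-like and Rasa4 cells of both libraries. In the 19 Sham and 26 TAC mesothelial cells Eln was at 230 and 388 from 9 and 24 UMIs.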
